A study of Rattus norvegicus with 4 samples.

Results

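Of the 17899 rat genes in the table, 10 were taken as sublining fibroblast genes by their symbols: Dpt, Clec3b, Smoc2, Pi16, Pdgfra, Thy1, Cd248, Dpp4, Gpx3 and Sult1a1. All 10 were found once each and all 10 passed the filter on low values. Polyadenylated RNA was measured in bulk in synovium, the soft tissue around the joint cavity, taken from osteoarthritic rats, with 4 libraries in all. One library each came from joints given human AdMSCs (AdMSC 1) and human SyMSCs (SyMSC 1). The labels use these short names alone; in the field they commonly stand for mesenchymal stem cells grown from fat and from synovium. PBS 1 and PBS 2 came from joints given PBS, a salt buffer, so disease was common to every group. Collection was on the day following cell injection, with no interval stated for PBS. Titles join PBS 1 with AdMSC 1 (the Ad pair) and PBS 2 with SyMSC 1 (the Sy pair). The series title instead contrasts a state before and a state after injection, whereas the PBS libraries are labelled as treated with PBS. The sources used here give no strain, sex, age, way of producing the disease, or number of animals behind a library. No label makes the libraries separate animals, and the p-values below therefore cover only differences among these libraries, which may be technical.

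The synovium has a thin lining layer facing the joint space and, beneath it, a sublining layer of loose connective tissue with vessels, nerves and fat. Fibroblasts of the sublining carry Thy1 on their surface, while those of the lining make lubricin from Prg4. In connective tissues generally, Dpt and Pi16 mark broadly distributed fibroblast states, and Pi16 and Dpp4 together mark a progenitor-like state found around larger vessels. Pdgfra is the receptor through which PDGF ligands drive growth and survival of mesenchymal cells. Several of these genes are not exclusive to fibroblasts: Dpp4 is also carried by T cells, Thy1 in rats by thymocytes and neurons, Cd248 by pericytes, and Gpx3 is abundant in kidney and adipose tissue.

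The labelled tissue was checked against its markers. Lining and sublining markers were both abundant in the PBS libraries (Prg4 3930.3 and 3765 TPM, Thy1 811 and 659.7 TPM), and the epidermal keratins Krt5, Krt10 and Krt1 lay between 0 and 1.56 TPM in every library. Of the sublining markers, Cd248 and Dpp4 stayed below 8 TPM in every library. TPM is a share of each library's transcripts divided by transcript length, so levels can be compared between genes, but TPM keeps no read depth, so counting error cannot be stated. In a bulk sample, fewer cells of a type and less RNA per cell cannot be told apart.

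Promoter windows in a RefSeq-derived table (rat build GRCr8) were found for 6 of the 10 genes. The 100 bases before the start site are shown for the 4 genes among them that were lower after injection (Dpt, Gpx3, Sult1a1 and Pdgfra) and for Pi16, which was not, as the sequences that lie in front of members with different behaviour. They are chr13:79656241-79656340 (plus strand) for Dpt, chr10:39529235-39529334 (plus) for Gpx3, chr1:190706113-190706212 (minus) for Sult1a1, chr14:33408517-33408616 (minus) for Pdgfra and chr20:7377853-7377952 (plus) for Pi16. Each is written 5′ to 3′, and capitals mark matches on either strand to the motifs searched.
Dpt: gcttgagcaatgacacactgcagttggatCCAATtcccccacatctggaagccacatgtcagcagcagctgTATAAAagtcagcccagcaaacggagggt
Gpx3: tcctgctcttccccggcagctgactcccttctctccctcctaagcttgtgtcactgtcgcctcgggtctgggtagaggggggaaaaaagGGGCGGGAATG
Sult1a1: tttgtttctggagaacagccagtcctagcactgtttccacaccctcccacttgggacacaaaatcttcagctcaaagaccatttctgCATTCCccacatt
Pdgfra: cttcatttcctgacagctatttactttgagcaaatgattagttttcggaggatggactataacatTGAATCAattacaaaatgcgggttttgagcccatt
Pi16: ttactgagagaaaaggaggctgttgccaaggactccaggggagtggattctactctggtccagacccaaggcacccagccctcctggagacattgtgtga

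The motifs searched were the TATA box (TATAAA), the CCAAT box, the GC box (GGGCGG), the AP-1 site (TGANTCA), the TEAD site (GGAATG) and the E-box (CACGTG). They were counted over windows from 250 bases before to 50 bases after the start, on both strands, and in the Gpx3 window GGGCGG and GGAATG share bases. Dpt alone held TATAAA, 29 bases before its start (14.2% of 33469 windows held it), and Pdgfra alone held TGANTCA (7.33%). CCAAT lay in the windows of Dpt, Pdgfra, Dpp4 and Gpx3 (37.5% of all windows), GGGCGG in those of Pi16, Gpx3 and Sult1a1 (33.1%), GGAATG in those of Gpx3 and Sult1a1 (14.2%), and CACGTG in none of the 6 (6.42%). The CCAAT of Gpx3 and the GGGCGG of Pi16 lay after the start site, not before it. No motif was held by all 4 of the windows that belong to genes lower after injection. These matches describe letters in a window and are not binding sites.

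Synovium given human cells, whatever their source, was first set against synovium given PBS. Of the 10 sublining fibroblast genes, 7 fell after injection (limma, adjusted p under 0.05) and 0 rose; over all 13371 genes tested, 24.7% were called lower and 23.7% higher (48.4% either way). Sult1a1 stood at 3.49% of its PBS mean after injection, Clec3b at 5.94%, Dpt at 10.1%, Smoc2 at 12.2%, Gpx3 at 21.8%, Thy1 at 30.6% and Pdgfra at 54.9%. Pi16, Dpp4 and Cd248 did not pass. The median log2 change was -1.96 over the 10 genes and 0.00087 over all genes tested. The same 7 genes had both injected libraries below both PBS libraries, as did 39.4% of all genes tested; 39.5% had both injected libraries above.

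**Figure D1:**
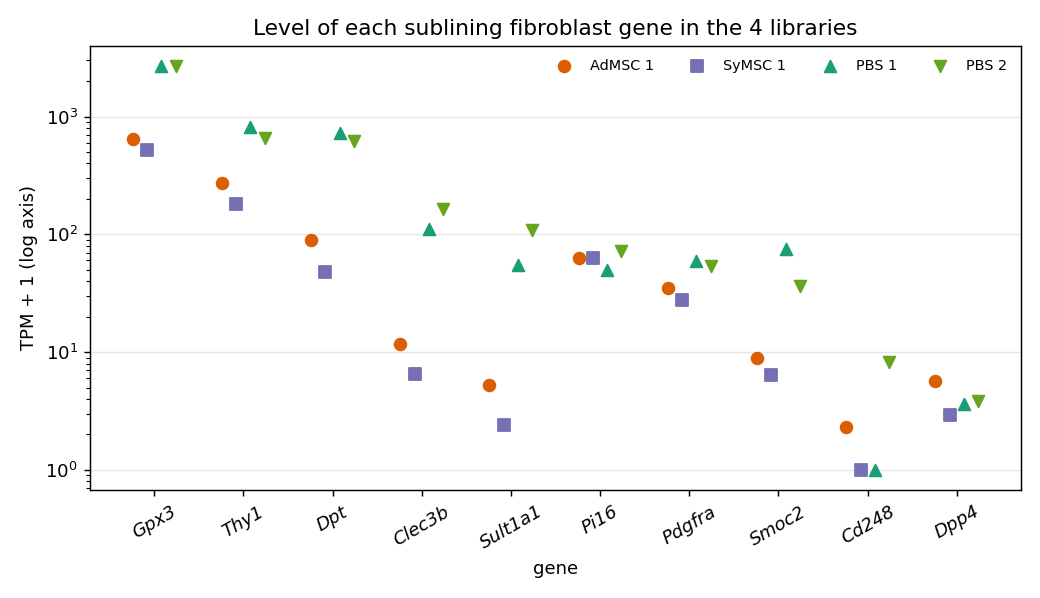
TPM + 1 on a log axis for each of the 10 genes in AdMSC 1, SyMSC 1, PBS 1 and PBS 2, 1 point per library, ordered by the PBS level. The injected points of Dpt, Clec3b and Sult1a1 lie far below their PBS points, while those of Pi16 lie between them.

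Among the secreted members, Dpt (gene ID 289178) encodes dermatopontin, a small matrix protein that binds decorin and collagen fibrils. Dpt stood at 89.0 TPM in AdMSC 1 and 47.0 TPM in SyMSC 1, against 726 TPM in PBS 1 and 616 TPM in PBS 2. The groups did not overlap, and the lowest PBS library was several times above the highest injected one. Its mean went from 671 ± 77.1 to 68.0 ± 29.7 TPM (SD, n = 2 each), a log2 change of -3.35 (SE 0.32, limma adjusted p = 0.00173). Among all tested genes Dpt ranked at the 98.4 and 98.2 percentile in PBS 1 and PBS 2 and at the 88.0 and 79.2 percentile in AdMSC 1 and SyMSC 1.

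Clec3b (gene ID 100912012) encodes tetranectin, a secreted lectin-like protein that binds plasminogen. It was listed at 10.8 TPM in AdMSC 1 and 5.50 TPM in SyMSC 1, against 109 and 165 TPM in PBS 1 and PBS 2. All injected values lay below all PBS values. The log2 change was -3.95 (SE 0.36, limma adjusted p = 0.00185). In rank it went from the 91.0 and 94.0 percentile with PBS to the 42.8 and 29.0 percentile after injection.

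Smoc2 (gene ID 292401), a calcium-binding matricellular protein related to SPARC, stood at 7.99 and 5.36 TPM in AdMSC 1 and SyMSC 1 and at 74.3 and 35.2 TPM in PBS 1 and PBS 2. The PBS libraries differed from each other by more than the injected ones did, and the groups still did not overlap. The log2 change was -2.79 (SE 0.41, limma adjusted p = 0.00723). This call ended when either injected library was left out (adjusted p = 0.0523 without AdMSC 1 and 0.0799 without SyMSC 1). PBS 1, the higher of the PBS libraries for Smoc2, also had more skeletal muscle RNA: the 6 muscle markers summed to 1795 TPM there and 613 TPM in PBS 2, with 125 and 177 TPM in AdMSC 1 and SyMSC 1. The part of muscle tissue in the Smoc2 level was not tested.

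Gpx3 (gene ID 64317) encodes the secreted, selenium-containing glutathione peroxidase that reduces peroxides outside cells. It was the most abundant of the 10 genes in every library, at 2670.3 TPM in PBS 1 and 2681 TPM in PBS 2, against 650.3 TPM in AdMSC 1 and 518 TPM in SyMSC 1. The PBS libraries nearly coincided, and the fall had the smallest SE of the 7 (log2 change -2.20, SE 0.15, limma adjusted p = 0.000335). Adipocyte markers differed between those PBS libraries, with the 7 genes summing to 536 TPM in PBS 1 and 1507 TPM in PBS 2 (225 and 265 TPM in AdMSC 1 and SyMSC 1), and Gpx3 differed there by 0.01 (log2). The part of fat in the Gpx3 level was not tested.

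Pi16 (gene ID 294312), a peptidase inhibitor-like protein of the CAP family, did not pass. Its PBS values were 48.7 TPM (PBS 1) and 71.3 TPM (PBS 2), and its injected values 62.05 TPM (AdMSC 1) and 61.6 TPM (SyMSC 1). Both injected values lay between the PBS values, so the groups overlapped. The log2 change was 0.07 (95% interval -0.40 to 0.54, limma adjusted p = 0.79). That interval does not reach the estimate for any of the 7 genes that fell, the nearest being Pdgfra at -0.85 (95% interval -1.25 to -0.46). The Pi16 interval rests partly on a spread borrowed from other genes, and a difference between Pi16 and another member was not tested.

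Among the surface members, Thy1 (gene ID 24832) encodes the GPI-anchored glycoprotein CD90, by which sublining fibroblasts are commonly recognised. It stood at 811 TPM in PBS 1 and 659.7 TPM in PBS 2, against 272 TPM in AdMSC 1 and 178 TPM in SyMSC 1. No injected library reached the PBS range (log2 change -1.73, SE 0.23, limma adjusted p = 0.00226). T cell markers moved the other way, with 5 of 6 called higher. Of these, the Lck call ended without PBS 2 or without SyMSC 1. Most of the gain lay in Cd2 and Cd8a, which summed to 196 and 230.1 TPM in AdMSC 1 and SyMSC 1 and to 14.3 and 15.9 TPM in PBS 1 and PBS 2. The other 4 genes summed to 35.0 and 51.3 TPM against 21.6 and 18.8 TPM, and Cd3d among them did not pass. Thy1 remained among the more abundant genes, at the 96.1 and 94.1 percentile in the injected libraries.

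Pdgfra (gene ID 25267), the receptor gene, had the smallest fall of the 7. Its values were 57.9 and 52.7 TPM in PBS 1 and PBS 2 and 34.2 and 26.5 TPM in AdMSC 1 and SyMSC 1, with no overlap between the groups. The log2 change was -0.85 (SE 0.16, limma adjusted p = 0.00683).

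Dpp4 (gene ID 25253), the membrane-bound dipeptidyl peptidase CD26, was low throughout. It stood at 4.74 TPM (AdMSC 1) and 1.90 TPM (SyMSC 1) after injection, and 2.63 TPM (PBS 1) and 2.83 TPM (PBS 2) with buffer. The PBS values lay between the injected ones, and the change did not pass (log2 change 0.13, 95% interval -0.69 to 0.95, limma adjusted p = 0.769). T cells carry Dpp4 too. Of the T cell markers given above, 5 of 6 were called higher after injection, Lck not in every setting. The part of T cells in the Dpp4 level was not tested. Cd248 (gene ID 293669) encodes endosialin, a C-type lectin of fibroblasts and pericytes. It was listed at 0 in SyMSC 1 and in PBS 1, at 1.32 TPM in AdMSC 1 and at 7.30 TPM in PBS 2, so the PBS libraries alone spanned all values. Pericyte and smooth muscle markers were present in each of these libraries (the 8 mural genes summed to 956 TPM in PBS 1, 978 TPM in PBS 2, 276 TPM in AdMSC 1 and 171 TPM in SyMSC 1). The part of mural cells in the Cd248 level was not tested. No direction is given for Cd248 (limma adjusted p = 0.62).

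The remaining member, Sult1a1 (gene ID 83783), encodes a cytosolic sulfotransferase that conjugates phenolic compounds. It showed the largest fall of the 10 genes. From 53.9 and 108 TPM in PBS 1 and PBS 2, Sult1a1 went to 4.25 TPM in AdMSC 1 and 1.39 TPM in SyMSC 1. The groups were far apart even though the PBS libraries differed from each other (log2 change -4.45, SE 0.56, limma adjusted p = 0.00738). Of all genes tested, 2.95% were called with a fall of at least 4-fold on the TPM + 1 scale. Sult1a1, Clec3b, Dpt, Smoc2 and Gpx3 were among them, and Thy1 and Pdgfra were not.

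**Figure D2:**
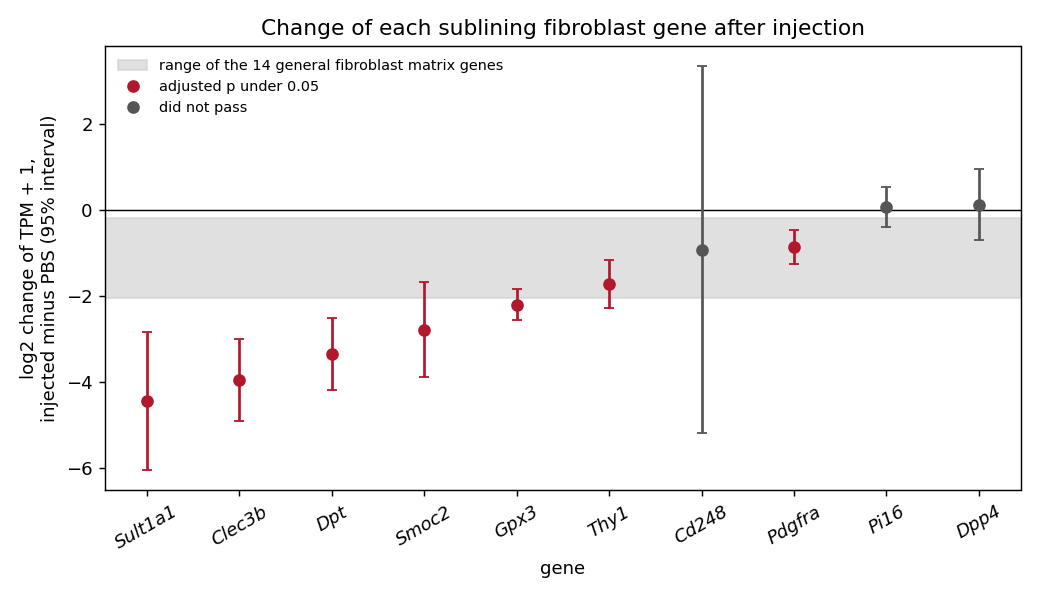
Log2 change of TPM + 1 with its 95% interval from limma, injected (n = 2) minus PBS (n = 2), for each of the 10 genes; red marks an adjusted p under 0.05 and the grey band spans the changes of the 14 general fibroblast matrix genes. The points of Sult1a1, Clec3b, Dpt, Smoc2 and Gpx3 lie below the band, and those of Pi16 and Dpp4 lie above it. Of these, the intervals of Smoc2, Gpx3, Pi16 and Dpp4 reach into the band.

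The fits use limma's moderation, which borrows the spread of other genes. With the spread of each gene taken alone (an alternative chosen after seeing the data), 0 of the 10 genes passed, the 7 having adjusted p between 0.0718 and 0.118. Over all genes that fit called 31 of 13371, 0.0897% lower and 0.142% higher, so few genes of any kind passed it. At an unadjusted p under 0.05 it held 5466 genes (40.9%), the same 7 members among them.

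The second comparison set the members against genes that most connective tissue fibroblasts express. Of 14 such general matrix genes, the collagen gene Col1a1 among them, 13 fell, 0 rose and 1 did not pass, with a median log2 change of -1.56 and a range from -2.05 to -0.17. Dpt, Clec3b, Smoc2, Gpx3 and Sult1a1 had larger falls than each of these 14 genes. Thy1 lay inside the range, with a larger fall than 9 of the 14, and Pdgfra had a larger fall than 3 of the 14. The changes of Pi16 and Dpp4 lay above all 14.

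Within each library, log2(TPM + 1) was also taken relative to the mean of the 14 matrix genes. On this scale Dpt stood at -2.66 in AdMSC 1 and -3.07 in SyMSC 1, against -0.93 in PBS 1 and -0.90 in PBS 2. Sult1a1 stood at -6.76 and -7.40 in AdMSC 1 and SyMSC 1 and at -4.65 and -3.41 in PBS 1 and PBS 2. Both genes were thus lower against the matrix genes in each injected library than in each PBS library. Pi16 went the other way, at -3.17 and -2.69 after injection and -4.80 and -4.00 with PBS. Pdgfra was also closer to the matrix genes after injection (-4.01 and -3.88) than with PBS (-4.55 and -4.43). Thy1 moved by less, from -0.77 and -0.81 in PBS 1 and PBS 2 to -1.06 and -1.17 in AdMSC 1 and SyMSC 1.

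The difference of these within-library values, injected minus PBS, was -3.05 for Sult1a1, -2.55 for Clec3b, -1.95 for Dpt, -1.39 for Smoc2, -0.80 for Gpx3, -0.33 for Thy1, 0.54 for Pdgfra, 1.47 for Pi16 and 1.53 for Dpp4. The matrix mean itself changed by -1.40, so a gene that followed the average transcript came out higher on this scale. Limma called 5 of the 10 lower (Sult1a1, Clec3b, Dpt, Smoc2 and Gpx3) and 2 higher (Pi16 and Dpp4), where 2.69% of all genes tested were called lower and 79.0% higher (81.7% either way). The error of the matrix mean is shared by every gene in this fit, so its p-values are too small and are printed only where a call ended. Gpx3 was no longer called without AdMSC 1 (adjusted p = 0.0955), PBS 1 (0.158) or PBS 2 (0.294), or with the median of the matrix genes in place of their mean (0.188, a setting chosen after seeing the data, which also called Pdgfra higher). Without PBS 1 the calls of Smoc2 (0.109) and Pi16 (0.0920) also ended, which left 3 lower and 1 higher. With the title arm as a block Sult1a1 was not called (0.0796), while Thy1 was called lower and Pdgfra higher. The calls of Dpt, Clec3b and Dpp4 ended under none of these settings, though all of them rest on the p-values that are too small. Dpp4 (1.53) and Pi16 (1.47) lay near the median of all genes tested on this scale, 1.40. Being called higher therefore does not set them apart from most genes, and the filter of 5 TPM left Dpp4 out. With the spread of each gene taken alone, 0 of the 10 genes passed (adjusted p from 0.0634 for Dpt to 0.117 for Pi16 among the 7), and over all genes 0 were called lower and 6 higher.

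**Figure D3:**
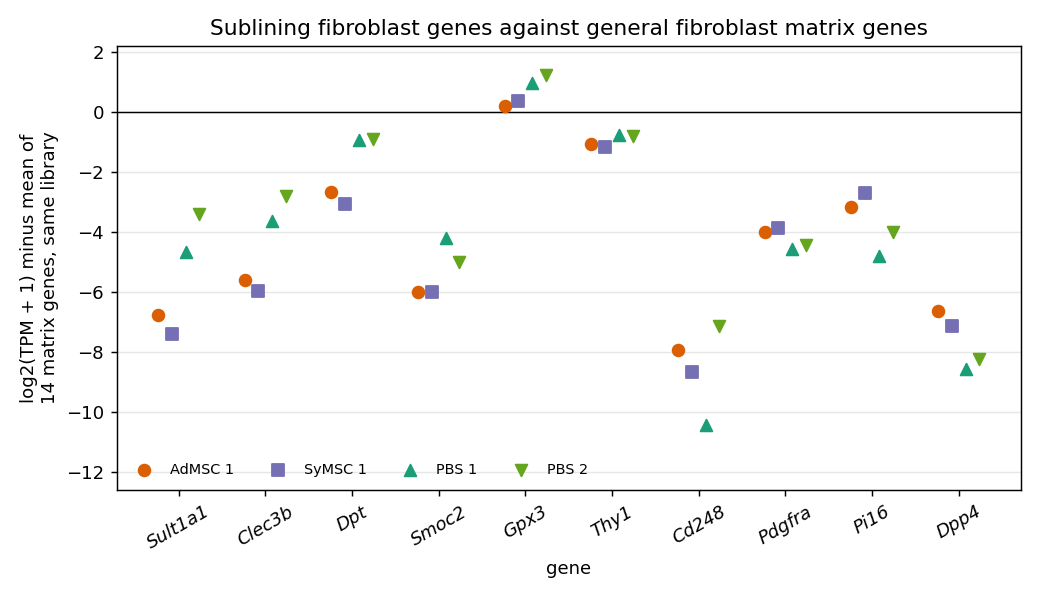
Log2(TPM + 1) of each gene minus the mean of the 14 general fibroblast matrix genes in the same library, 1 point per library. For Sult1a1, Clec3b, Dpt, Smoc2, Gpx3 and Thy1 both injected points lie below both PBS points, and for Pdgfra, Pi16 and Dpp4 they lie above.

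The third comparison concerned the source of the injected cells, with 1 library each. All 10 genes were lower in SyMSC 1 than in AdMSC 1, Cd248 being listed at 0 there. The SyMSC 1 level of Sult1a1 was 32.7% of its AdMSC 1 level, and that of Dpp4 40.1%. It was 51.0% for Clec3b, 52.8% for Dpt, 65.5% for Thy1, 67.1% for Smoc2, 77.3% for Pdgfra, 79.7% for Gpx3 and 99.3% for Pi16. Of all 13371 genes tested, 8748 were lower in SyMSC 1, and all 14 general fibroblast matrix genes were. The median log2 difference, SyMSC 1 minus AdMSC 1, was -0.73 over the 10 genes, -0.50 over the matrix genes and -0.09 over all genes.

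With 1 library for each source, the design holds no test of the source. A p-value here sets the gap between those libraries against the spread of the PBS pair, moderated by a spread borrowed from other genes. In limma with 3 groups, 0 of 13371 genes were called between SyMSC 1 and AdMSC 1, with 861 genes, or 6.44%, at an unadjusted p under 0.05. The smallest adjusted p among the members was 0.544, for Dpt. No member reached the listing rule of a 2-fold ratio of TPM + 1 with at least 5 TPM in either library, which 0.732% of eligible genes met in the lower direction and 1.48% in the higher; Sult1a1 and Cd248 passed the ratio but not the floor.

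Both sources were also set against the same PBS libraries. In the fit with 3 groups, 6 members were called lower for AdMSC 1, where 16.5% of all genes tested were lower, 17.9% higher and 34.4% either. For SyMSC 1 it was 7 members, where 22.0% of all genes were lower, 18.2% higher and 40.2% either; 0 members were called higher for each source. The member called for SyMSC 1 alone was Smoc2, at an adjusted p of 0.0677 for AdMSC 1 and 0.0446 for SyMSC 1, which is no test of a difference between the sources. Dpt changed by -2.90 (SE 0.16) in AdMSC 1 and -3.80 (SE 0.16) in SyMSC 1, and Sult1a1 by -3.88 (SE 0.51) and -5.01 (SE 0.51). Pi16 differed from PBS by 0.07 and 0.06, with SE 0.26 for both. These contrasts share their PBS libraries, and each lone injected library is assumed to vary like the PBS pair. Their SEs also rest on a spread borrowed from other genes, so they do not measure the PBS spread alone.

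**Figure D4:**
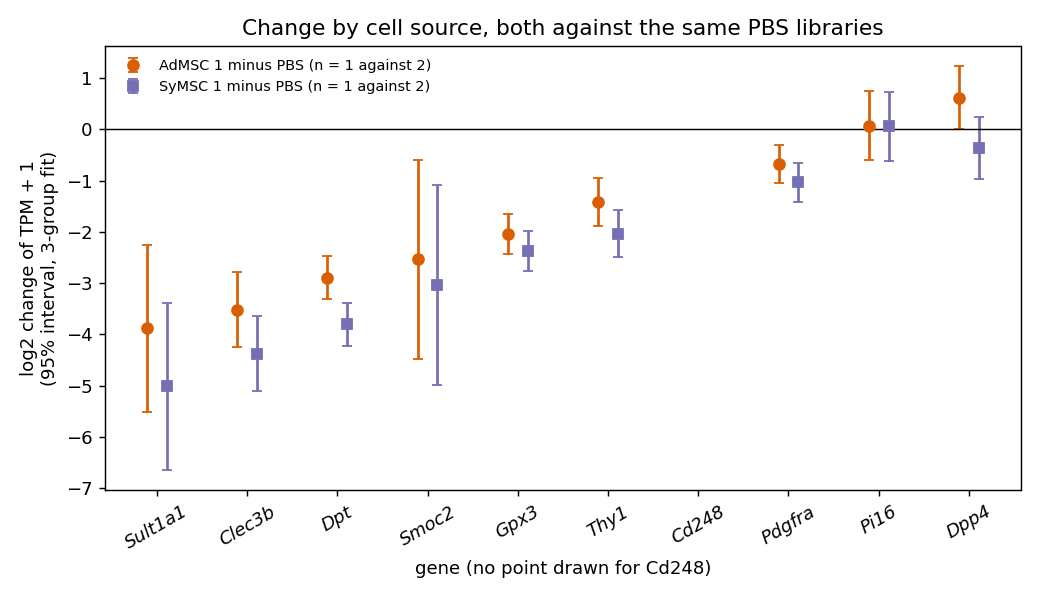
Log2 change of TPM + 1 against the PBS pair for AdMSC 1 (circles) and SyMSC 1 (squares), with 95% intervals from limma with 3 groups; Cd248, listed at 0 in SyMSC 1 and PBS 1, is not drawn. SyMSC 1 lies below AdMSC 1 for every gene drawn, by an amount too small to see for Pi16.

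The PBS libraries show how far libraries of the same treatment differed. Between them, Gpx3, Pdgfra, Thy1 and Dpt differed by log2 0.01, -0.13, -0.30 and -0.23 (PBS 2 minus PBS 1). Pi16 (0.54), Clec3b (0.59) and Sult1a1 (0.99) were higher in PBS 2, and Smoc2 was lower there (-1.06). By the rule of a 2-fold ratio with at least 5 TPM, Smoc2 was listed as lower in PBS 2 (1.29% of eligible genes) and Cd248 as higher (0.959%). For Dpt, Clec3b, Gpx3, Thy1 and Sult1a1, every pairing of an injected with a PBS library gave a ratio of at least 2 in the lower direction, as it did for Smoc2; such ratios were met by 12.3% and 12.0% of eligible genes for AdMSC 1 against PBS 1 and PBS 2, and by 15.4% and 15.1% for SyMSC 1. Pdgfra reached that ratio only in SyMSC 1 against PBS 1, and Pi16 in no pairing. Cd248 reached it only against PBS 2.

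Other genes of the sublining compartment were taken from lists. Counts here and for the lists below stand beside the 24.7% of all genes tested that were called lower and the 23.7% called higher. Of 17 genes of perivascular and stromal sublining fibroblasts, 13 fell, 0 rose and 4 did not pass (median log2 change -1.85). The largest falls were those of Mfap4, a microfibril-associated protein (358 and 140 TPM in AdMSC 1 and SyMSC 1, 3079.8 and 2872 TPM in PBS 1 and PBS 2), the Wnt-binding protein gene Sfrp2 (-3.48), the fibril-associated collagen gene Col14a1 (-3.41) and Ccl11, an eosinophil chemoattractant (-2.61). Mfap4 and Sfrp2 did not pass without PBS 1 (adjusted p = 0.0880 and 0.0530) or without PBS 2 (0.0876 and 0.0827), and Sfrp2 also not without SyMSC 1 (0.0726). Of 11 tested genes of the adventitial state to which Pi16 and Dpp4 belong, 5 fell, 1 rose and 5 did not pass (median -1.39). Igfbp6, which binds insulin-like growth factor 2, went from 778 and 819 TPM in PBS 1 and PBS 2 to 74.6 and 47.5 TPM in AdMSC 1 and SyMSC 1 (log2 change -3.72), and Cd34 (-2.19) and Mfap5 (-2.02) fell. Emilin2, an elastin-associated glycoprotein, rose (2.16), so the list did not move one way. Mfap5 did not pass without PBS 1 (adjusted p = 0.0823) or PBS 2 (0.0941).

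Lining fibroblast genes showed 7 falls and 2 that did not pass among 9 (median -1.58). Clic5, a chloride channel protein of the lining, went from 63.3 and 73.5 TPM in PBS 1 and PBS 2 to 4.10 and 4.12 TPM in AdMSC 1 and SyMSC 1 (log2 change -3.76), beside Hbegf (-1.72), Col22a1 (-1.67) and Tspan15 (-1.62). Prg4 did not pass, at 4192 and 2448 TPM in AdMSC 1 and SyMSC 1. The sublining members and the lining genes thus both included genes that fell by much and genes that did not pass; a difference between the lists was not tested. Of 10 genes of activated fibroblasts, 4 rose, 2 fell and 4 did not pass (median 0.15). Il6 (4.13), Lif (2.39), both cytokines, and the matrix-degrading protease gene Mmp3 (2.19) rose, while Cthrc1, a gene of collagen-producing fibroblasts, fell (-2.34). Il6, Lif and Mmp3 are also made by other cells, macrophages among them. The injected joints had received human cells, and how human reads were kept apart from rat ones is not stated. The part of human RNA in these or the other values was not tested.

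**Figure D5:**
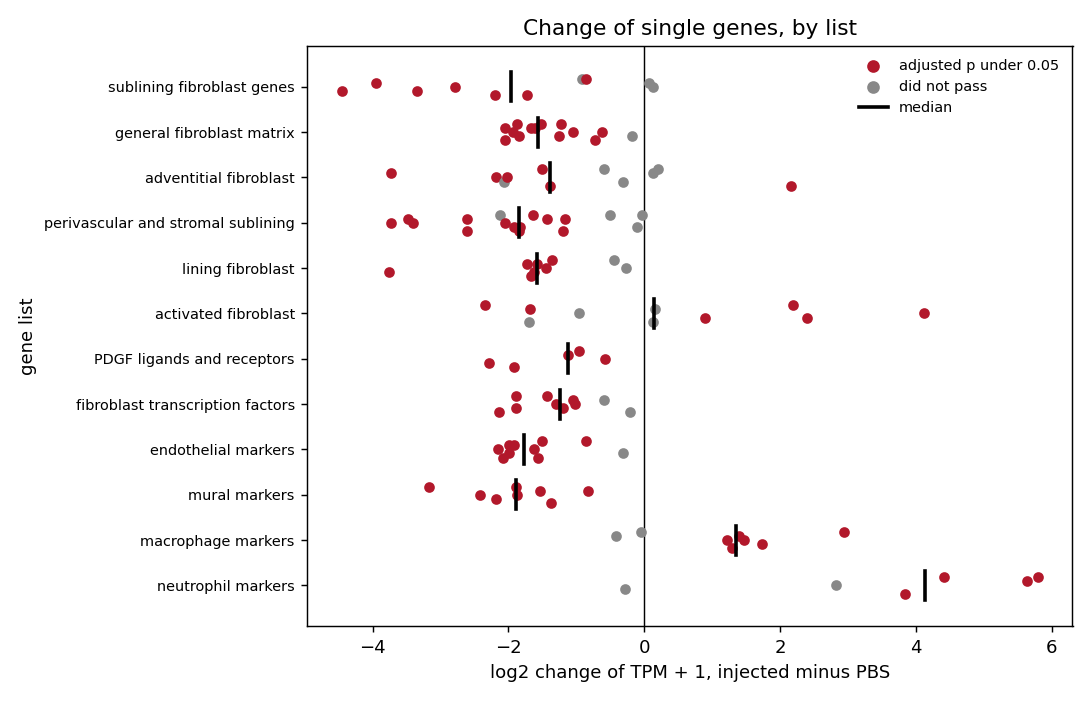
Log2 change of TPM + 1, injected minus PBS, for each tested gene of 12 lists; each point is a gene, red marks an adjusted p under 0.05 and the black bar is the median of the list. Fibroblast, endothelial and mural lists lie mostly below 0, apart from the activated fibroblast genes, while macrophage and neutrophil markers lie mostly above it.

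Around Pdgfra, all 5 PDGF genes fell (median -1.13), where 24.7% of all genes tested were called lower. They were the ligands Pdgfd (-2.28), Pdgfb (-1.13) and Pdgfa (-0.95), Pdgfc, and the sister receptor gene Pdgfrb (-1.92). Pdgfrb, which marks mural cells as well as fibroblasts, went from 133 and 135 TPM in PBS 1 and PBS 2 to 41.2 and 29.1 TPM in AdMSC 1 and SyMSC 1, a larger fall than that of Pdgfra on the log2 scale; the difference between the receptors was not tested. Of 10 tested transcription factor genes of mesenchymal cells, 8 fell and 2 did not pass (median -1.25), with Osr1 (-2.14), Osr2 (-1.89), Meox2 (-1.88) and Ebf2 (-1.44) falling most.

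Relatives of the members moved in different directions, with 3 that rose, 9 that fell and 5 that did not pass among 17 tested (median -0.54). Smoc1, the paralog of Smoc2, fell from 75.0 and 77.5 TPM in PBS 1 and PBS 2 to 11.4 and 9.20 TPM in AdMSC 1 and SyMSC 1 (log2 change -2.78). Of the glutathione peroxidases, Gpx1, the cytosolic enzyme of most cells, rose (1.06) while Gpx3, Gpx7 (-1.20) and Gpx8 (-0.94) fell, and Gpx4, which protects membrane lipids, stood at -0.14 and did not pass. Among CAP family genes beside Pi16, Glipr1 rose from 35.2 and 33.9 TPM in PBS 1 and PBS 2 to 209.8 and 336 TPM in AdMSC 1 and SyMSC 1 (log2 change 2.91), Glipr2 rose (0.73) and Crispld2 fell (-0.76). Of the prolyl peptidases related to Dpp4, the fibroblast activation protein gene Fap fell (-1.68), while Dpp7 (-0.30), Dpp8 (0.33) and Dpp9 (0.20) did not pass. Of the lectins related to Cd248, the endothelial genes Clec14a (-2.08) and Cd93 (-0.54) fell and Thbd (-0.54) did not pass. The Cd93 call ended without PBS 1 (adjusted p = 0.0862), PBS 2 (0.0526) or SyMSC 1 (0.0563), and Thbd passed without SyMSC 1 (0.0280) and with the title arm as a block (0.0212). Of the sulfotransferases, Sult5a1 fell with Sult1a1 (-2.25), and Sult1b1, Sult2b1 and Sult4a1 were below the filter.

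The genes whose pattern over the 4 libraries lay closest to the mean pattern of the 10 members, by Euclidean distance of centred log2(TPM + 1) among 7688 candidates of at least 10 TPM on average, were Cpq (distance 0.13), Meox2 (0.13), Gas6 (0.14), Osr2 (0.17), Filip1l (0.17) and Chp2 (0.18). Gas6, the ligand of TAM receptors, stood at 271 and 193 TPM in AdMSC 1 and SyMSC 1 and at 828 and 1046 TPM in PBS 1 and PBS 2. With 4 libraries this likeness is a description.

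Markers of other cells moved with the same contrast. Macrophage markers summed to 22380.3 and 30345 TPM in AdMSC 1 and SyMSC 1 and to 9503 and 10844 TPM in PBS 1 and PBS 2, with 6 of 8 called higher. Most of each sum was Lyz2, at 19301 and 27210 TPM in AdMSC 1 and SyMSC 1 and 8163 and 9237 TPM in PBS 1 and PBS 2. Adgre1 (log2 change -0.05) and C1qa (-0.42) did not pass. Neutrophil markers summed to 2072 and 3599 TPM against 301 and 84.3 TPM, with 4 of 6 higher; endothelial markers summed to 318 and 271 TPM against 834 and 926 TPM, with 9 of 10 lower; and mural markers summed to 276 and 171 TPM against 956 and 978 TPM, with 8 of 8 lower. Tendon markers summed to 249.1 and 130 TPM against 1449 and 1124 TPM, with 4 of 4 tested lower. Some of these calls ended with 1 library left out, in fits that covered up to 4 genes of each list. Those of the neutrophil genes S100a8 and S100a9 ended without AdMSC 1 or SyMSC 1, and that of Cxcr2 without SyMSC 1. The call of the mural gene Rgs5 ended without PBS 1 or PBS 2, and that of the tendon gene Thbs4 without PBS 1 or SyMSC 1. TPM is a share, so RNA gained from some cells leaves a smaller share for the rest. Over all genes tested the median log2 change was 0.00087. The part of these marker shifts in the changes of the sublining members was not tested.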

How the data were processed

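The authors deposited TPM (so named in the column headers) for 17899 rat genes in 4 libraries, and each column has the same sum. The submitters' processing notes list HISAT2 (2.0.4) and Rnor 6.0. By the labels' protocols, oligo-dT beads selected the RNA, dUTP marked the second strand and a BGISEQ-500 read the libraries. How the authors counted, used strand or kept human reads apart from rat ones is not stated in those sources. Columns were matched to samples by title and grouped by treatment; 0 sample columns were left unused.

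Tests used limma (version 3.58.1, R 4.3.3) with its trend and robust settings on log2(TPM + 1), over the 13371 genes reaching 1 TPM in 2 or more libraries. Injected (n = 2) was compared with PBS (n = 2), p-values were adjusted by Benjamini-Hochberg over all these genes, and the threshold was 0.05. The same fit was run after subtracting the mean of the 14 matrix genes, and with 3 groups (1 residual degree of freedom). Fits were also run on simulated data, and the p-values of the fit against the matrix genes remain too small, as stated above. Log2 changes understate those of low genes. The members and lists were chosen with earlier results of these data known. All 10 members were named; of other lists, up to 4 genes, taking called genes by size of change and otherwise by abundance, and relatives reaching 5 TPM. A RefSeq table (GRCr8) gave promoters for 6 of 10 members. Alternatives were other scalings, filters, pseudocounts, a title block and each library left out.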

Additional observations from a re-analysis of the deposited data

Results flagged for a closer look

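For 3 of the 10 genes the library pairs formed by the titles moved in opposite directions, with 1 injected and 1 PBS library in each pair, and the difference between pairs was not tested. Pi16 was higher in AdMSC 1 than in PBS 1 (log2 0.34) and lower in SyMSC 1 than in PBS 2 (-0.21), a difference of -0.55 for the Sy pair minus the Ad pair. Dpp4 showed 0.66 in the Ad pair and -0.40 in the Sy pair, a difference of -1.06 at levels below 5 TPM. Cd248 showed 1.21 and -3.05, a difference of -4.27, with listed values of 0 on 1 side of each pair.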

How the results depend on the processing

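The count of 7 members called lower and 0 higher was also found with a pseudocount of 0.1, no filter, a filter of 5 TPM, median-ratio or upper quartile scaling, limma without trend and robust options, and the title arm as a replicate block. Leaving out 1 library gave 6 to 7 lower, with the lone library of a group assumed to vary like the other group. With no moderation of the spread, chosen after seeing the data, 0 members and 31 of all genes were called. Members that had not passed reversed with 1 library left out: Dpp4 ranged from -0.36 (without AdMSC 1) to 0.62, Pi16 from -0.20 (without PBS 1) to 0.34 and Cd248 from -2.45 to 0.61 (without PBS 2). For SyMSC against AdMSC, Pi16 reversed with median-ratio scaling (0.073); the cause was not tested. Against the matrix genes, 5 lower and 2 higher became 3 to 5 lower and 1 to 3 higher with 1 library left out, 1 higher with the filter of 5 TPM, which left 8 members, and 0 and 0 without moderation. The title block gave 5 lower and 3 higher, and the median of the matrix genes 4 lower and 3 higher; Cd248 ranged from -1.18 (without PBS 1) to 2.13. Genes called in all were 6476, from 4590 to 5379 with 1 library left out. Between SyMSC 1 and AdMSC 1, 0 genes were called under every scaling, filter and pseudocount tried. The titles pair the libraries by a word and not by a stated animal: deviations of paired libraries correlated at 0.12 over 13371 genes with 2 pairs, and the replicate block called 6590 genes. Scaling moved the median of all genes by less than 0.1 (log2). TPM keeps no depth, so values near 1 TPM, as for Dpp4, Cd248 and Sult1a1 after injection, are imprecise by an unknown amount.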
